A study of Mus musculus with 143 samples.

Results

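The leukocyte and matrix integrins described here are 10 subunit genes, Itgam, Itgax, Itgal, Itgb2, Itga4, Itga6, Itgav, Itgb1, Itgb3 and Itgb5, chosen by name among the 27 integrin subunit genes and 23337 gene rows of the count table. They were measured by Smart-seq2, a full-length RNA-seq method without molecular identifiers, in 143 single microglia, which are brain macrophages. The cells came from cerebella of wild type male C57BL6N mice at postnatal day 7, pooled over animals, ground cold with a dounce and cleared of myelin. They were sorted as CD45-low cells positive for CD11b, Gpnmb and Clec7a on the surface. All cells carry these labels, so the series is 1 sample with 95 cells on plate 1 and 48 on plate 2. No other population was measured and no cell can be assigned to an animal, so no p-value is given and nothing is said to differ from other microglia.

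Integrins are receptors made of an alpha and a beta subunit that reach the cell surface as a pair. Their extracellular heads bind matrix proteins, complement fragments or counter-receptors on other cells, and the beta tails bind talin and kindlin, which switch the receptor on and tie it to actin. Leukocytes are marked by the beta-2 class, in which Itgb2 (CD18) pairs with Itgam (CD11b), Itgax (CD11c) or Itgal (CD11a). The matrix receptors among the members are built on Itgb1, which accepts many alpha subunits, and on Itgav, which pairs with several beta subunits, including Itgb1, Itgb3 and Itgb5, and reads the RGD motif of proteins such as vitronectin and osteopontin.

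The members lie on several chromosomes, and Itgam and Itgax are neighbours. In mm10, Itgam runs from 128062640 to 128118491 and Itgax from 128129547 to 128150657, both on the plus strand of chromosome 7 and 11055 bases apart. Itgal is on the same chromosome (127296260 to 127335138, plus strand). The 250 bases before the RefSeq start (GRCm38.p6, plus strand) are shown for Itgam and Itgax, neighbours that share the partner Itgb2, and for Itgb5 and Itgav, subunits of the same receptor that differ widely in level per length. Capitals mark GAGGAA or its reverse complement TTCCTC, a core bound by PU.1, the myeloid transcription factor.
Itgam, chr7:128062390-128062639: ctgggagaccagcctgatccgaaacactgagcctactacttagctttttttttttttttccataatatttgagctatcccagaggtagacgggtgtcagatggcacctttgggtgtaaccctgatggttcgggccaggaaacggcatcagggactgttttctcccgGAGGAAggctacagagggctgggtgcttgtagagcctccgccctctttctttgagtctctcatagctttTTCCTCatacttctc
Itgax, chr7:128129300-128129549: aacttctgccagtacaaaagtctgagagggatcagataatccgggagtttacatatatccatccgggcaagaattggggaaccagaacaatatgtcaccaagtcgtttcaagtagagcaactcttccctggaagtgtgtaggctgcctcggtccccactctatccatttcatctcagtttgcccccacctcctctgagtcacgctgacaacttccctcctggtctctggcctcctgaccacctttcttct
Itgb5, chr16:33829415-33829664: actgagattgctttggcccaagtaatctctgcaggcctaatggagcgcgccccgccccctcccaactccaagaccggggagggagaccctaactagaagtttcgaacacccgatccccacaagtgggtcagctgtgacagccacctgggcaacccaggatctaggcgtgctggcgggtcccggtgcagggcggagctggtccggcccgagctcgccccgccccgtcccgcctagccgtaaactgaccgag
Itgav, chr2:83724147-83724396: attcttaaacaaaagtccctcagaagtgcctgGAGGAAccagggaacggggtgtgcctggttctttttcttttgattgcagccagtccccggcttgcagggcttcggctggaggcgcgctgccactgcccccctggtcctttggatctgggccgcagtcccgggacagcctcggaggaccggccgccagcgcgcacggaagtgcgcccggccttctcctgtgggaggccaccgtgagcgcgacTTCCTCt
Itgam has the core on the plus strand 84 bases and on the minus strand 15 bases before the start, and Itgav has it on the plus strand 218 bases and on the minus strand 7 bases before it. No GAGGAA stands in these windows of Itgax and Itgb5. Of 32851 promoter windows of this length, 23.3% hold the core on either strand. RefSeq windows matched 6 of the 10 members, and of these Itgam, Itgav and Itgb1 hold it.

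A read in at least 50% of cells was found for 7 of the 10 members, against 9.41% of all gene rows and 17.2% of the gene rows with any read. The members were picked with such values known, so the count is a description. Total counts ran from 271190 to 1226521 per cell, and 1 read was worth 1.37 CPM at the median depth, CPM being counts per 1000000 gene counts of the cell. Of 10 microglial markers, 7 were read in 90% of cells or more, with Tmem119 lowest at 25.9%. Among markers of other cells with integrins of their own, the T and NK cell genes in the table were at 0 in every cell. Of 6 monocyte markers 3 were at 0, Ly6c2 and Plac8 among them, while Fn1 was read in 15.4% of cells, and Ccr2 and Vcan in 3 cells each. Of 6 platelet markers 3 were at 0 and the others were read in 1 or 2 cells. Of 5 neutrophil markers S100a8 was read in 10 cells and the others in at most 2, and of 5 B cell markers Cd79b was read in 37.1% of cells and the others at 0. Of 5 dendritic cell markers Flt3 and Clec9a were at 0, Zbtb46 was read in 6 cells and Xcr1 in 1 cell. Siglech, also a gene of microglia, was read in 69.2% of cells. Summed border-associated macrophage markers ran from 0 to 3381 CPM per cell with Cd163, Lyve1 and Cd209f at 0, Stab1 read in 87.4%, Mrc1 in 55.9%, Ms4a7 in 21%, Pf4 in 16.1% and F13a1 in 3.5% of cells. The part of these cells in the integrin values was not tested.

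In the beta-2 class, the common subunit and its partners Itgam and Itgax were read in most cells and Itgal in few. Itgb2, which carries the whole class, had a lowest value of 0, a median of 211 and a highest of 1912 CPM, with a read in 95 of 143 cells (66.4%, exact 95% interval 58.1 to 74.1). Itgam, the alpha subunit of complement receptor 3 and itself a protein of the gate, ran from 0 through a median of 107.8 to 1006 CPM and was read in 97 cells. Its share was 62.1% (51.6 to 71.9) on plate 1 and 79.2% (65 to 89.5) on plate 2. Since the gate reads protein, cells lacking Itgam reads are not thereby negative for CD11b. Itgax, the alpha subunit of complement receptor 4, ran from 0 through a median of 42.2 to 1831 CPM and was read in 75 cells, 50.5% on plate 1 and 56.2% on plate 2. Its pooled level was lower on plate 1, at 147 CPM, than on plate 2, at 260 CPM. Itgal, the alpha subunit of the lymphocyte receptor LFA-1, was read in 7 cells (4.90%, 1.99 to 9.83) with a highest value of 527 CPM, and 5 cells held 89.9% of its summed level.

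These genes mostly had either no read or many counts in a cell, and counts without molecular identifiers are not independent molecules. Among the cells with a read of Itgb2 the median was 237 counts and the lower quartile 152, and only 3 of the 95 had 1 to 4 counts. For Itgam the lower quartile was 70 counts among cells with a read, and no such cell had fewer than 5.

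**Figure D1:**
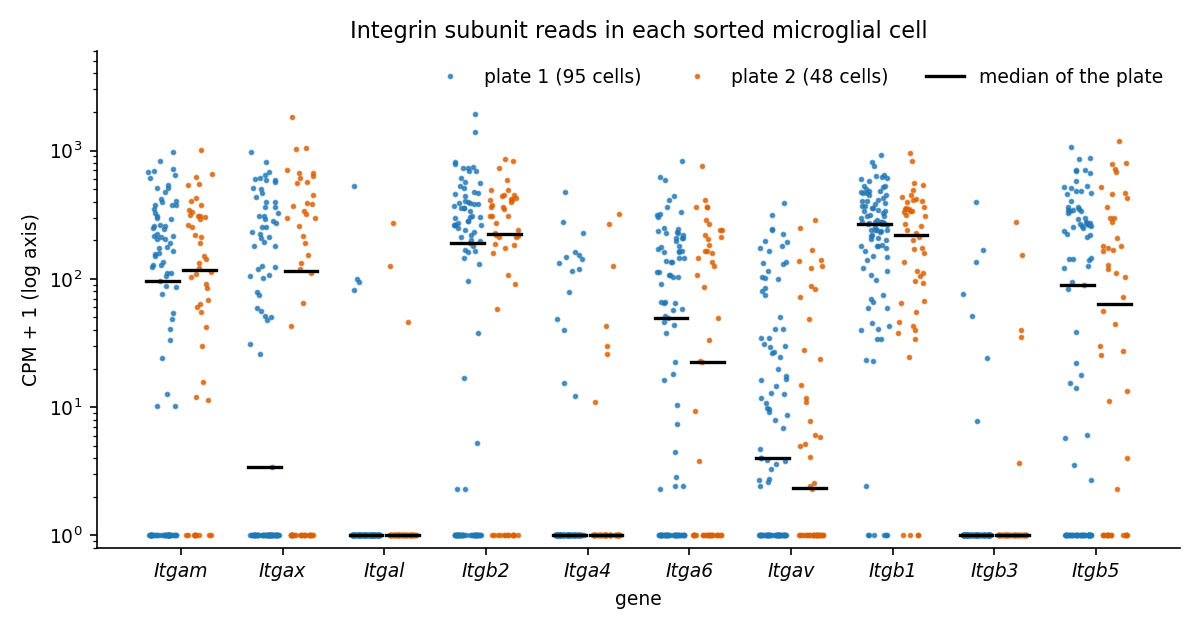
Each point is 1 cell, with CPM + 1 on a log axis for the 10 integrin genes on plate 1 and on plate 2, and black lines are plate medians. Itgb1 is read in 93% of cells, while Itgal, Itga4 and Itgb3 lie at 0 in most cells.

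Among the matrix integrins, Itgb1 was the most widely read of the 10 genes. It ran from 0 through a median of 256 to 948 CPM and was read in 93% of cells (87.5 to 96.6), 93.7% on plate 1 and 91.7% on plate 2. Itga6, whose pairing with Itgb1 makes a laminin receptor, had a median of 42.6 and a highest value of 823 CPM and was read in 88 cells (61.5%, 53 to 69.5). Itga4, which with Itgb1 binds VCAM-1 and fibronectin, was read in 22 cells (15.4%, 9.90 to 22.4), with a highest value of 475 CPM.

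Of the beta subunits that Itgav can take besides Itgb1, Itgb5 was read in most cells and Itgb3 in few. Itgb5, which with Itgav makes a vitronectin receptor, ran from 0 through a median of 81.8 to 1184 CPM and was read in 91 cells (63.6%, 55.2 to 71.5). Itgb3, the beta subunit that Itgav shares with the platelet integrin, was read in 12 cells (8.39%, 4.41 to 14.2), and 5 cells held 83% of its summed level. Itgav itself was read in 82 cells (57.3%, 48.8 to 65.6) but at a median of only 2.90 CPM, with a highest value of 389 CPM. Of those 82 cells, 21 (25.6%) had 1 to 4 counts, and with a minimum of 5 counts Itgav was present in 42.7% of cells.

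Of the 17 integrin subunit genes outside the list, 13 had no read in any cell, which for each allows a share of cells with a read of up to 2.1% (3 in 143) and sets no limit on the cells that express it. Itgb8, Itgb7, Itgb6, Itgb4, Itgb2l, Itgad, Itga1, Itga2, Itga3, Itga7, Itga8, Itga10 and Itga11 make up that group. Itga5, of the fibronectin receptor, was read in 20.3% of cells (14 to 27.8) and Itga9, whose pair with Itgb1 binds tenascin and osteopontin, in 10.5% (5.99 to 16.7). Itga2b, the platelet alpha subunit, and Itgae were each read in 1 cell. No cell type that should lack integrins was sequenced. The subunit genes at 0 are grouped by having no read, so they cannot measure stray reads. Of 8 oligodendrocyte lineage markers 4 were at 0, while Cnp was read in 35.7% of cells, Cspg4 in 17.5%, Mbp in 13.3% and Mag in 10.5%. The highest share was 13.3% (Slc1a3) among 5 astrocyte markers, 10.5% (Flt1) among 6 of endothelium and 5.59% (Rbfox3) among 6 of neurons. The source of these reads was not tested.

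Divided by exon length and pooled over both plates, Itgb2, Itgb1 and Itgb5 stood above every alpha member, and Itgb3 was among the lowest of the 10. The pooled level per exon kilobase was 82.2 CPM for Itgb2, 66.9 for Itgb1, 52.9 for Itgb5, 38.1 for Itgax, 36.3 for Itgam, 11.9 for Itga6, 3.59 for Itgav, 1.69 for Itgb3, 1.42 for Itga4 and 1.19 for Itgal. Not every neighbour in this order is separate. Itgax was below Itgam on plate 1, at 30.6 and 35.1 CPM per exon kilobase, and above it on plate 2, at 54.1 and 38.9, and Itga4 and Itgal changed places between plates in the same way. Itgb5 was above Itgax on plate 1, at 53.1 CPM per exon kilobase, but below it on plate 2, at 52.3. On coding length, chosen after seeing the data, Itgb1 was level with Itgb2 (a ratio of 1.03) and Itga4 passed Itgb3. Together the alpha members had 0.45 times the level of the beta members per exon kilobase, 0.41 on plate 1 and 0.55 on plate 2.

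The supply of partners among the members differed between the classes. Per exon kilobase, Itgam, Itgax and Itgal together had 0.92 times the level of Itgb2, 0.82 on plate 1 and 1.12 on plate 2. Itga4, Itga6 and Itgav together had 0.25 times the level of Itgb1, or 0.46 by coding length. This sum leaves out Itga5 and Itga9, partners of Itgb1 outside the list, at 6.39 and 1.63 CPM per exon kilobase. The share of Itgb1 that its partners reach is thus partly set by the list. Itgb5 was 14.7 times as high as Itgav per exon kilobase, 13.8 times on plate 1 and 17 times on plate 2. That ratio fell to 6.15 by coding length, since 10744 exon bases but 3132 coding bases are annotated for Itgav. Itgb5 was 31.4 times as high as Itgb3 by exon length and 18 times by coding length.

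**Figure D2:**
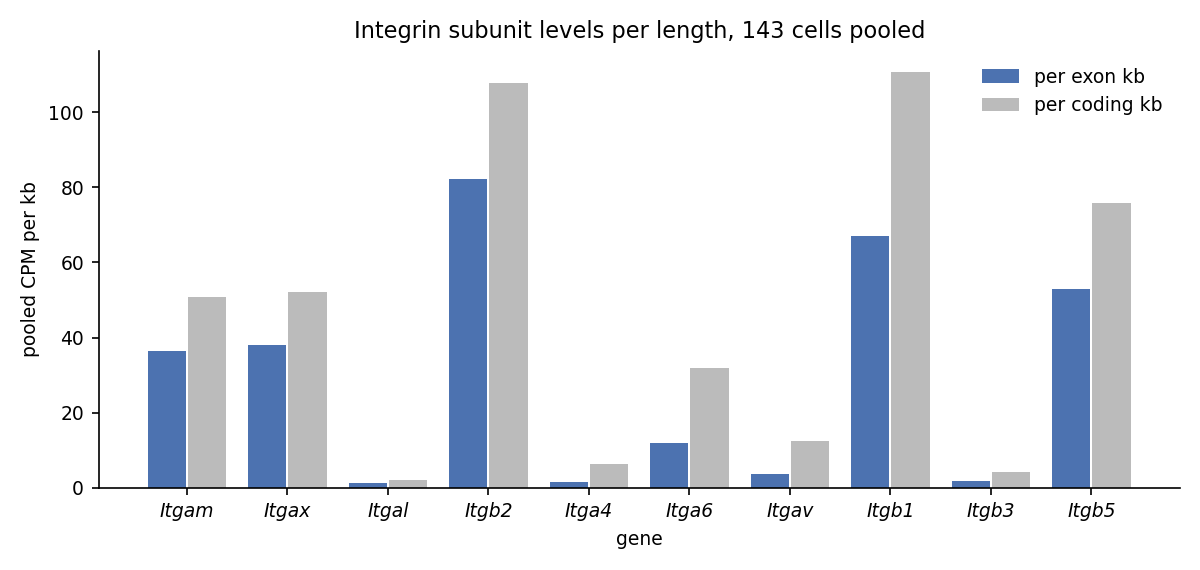
Bars give the pooled CPM of each integrin gene per exon kilobase (blue) and per coding kilobase (grey) over 143 cells. Itgb2, Itgb1 and Itgb5 are the 3 highest on both scales, and Itgav, Itgb3, Itga4 and Itgal the 4 lowest.

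Nearly every cell held RNA for a complete receptor. At least 1 of the 8 integrins that the members can form had reads of both subunits in 130 of 143 cells (90.9%, 85 to 95.1), 93.7% on plate 1 and 85.4% on plate 2. A cell had a read of 5 members at the median, with a lowest of 1 and a highest of 8, and 2 complete integrins, with a highest of 6. The number of members read moved with the number of genes detected in the cell, with a Spearman correlation over cells of 0.34 on plate 1 (n = 95) and 0.35 on plate 2 (n = 48). These cells share a pool, a plate and a preparation.

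By class, an Itgb1 integrin was complete in 79.7% of cells (72.2 to 86), an Itgav integrin in 57.3% (48.8 to 65.6) and an Itgb2 integrin in 55.2% (46.7 to 63.6). Itgb2 was read with none of Itgam, Itgax and Itgal in 16 cells, and 1 of those 3 or more was read without Itgb2 in 40. Itgam, Itgax and Itgb2 were all read in 42 cells (29.4%, 22.1 to 37.6), 24.2% on plate 1 and 39.6% on plate 2. Every cell with a read of Itgav had a read of Itgb1, Itgb3 or Itgb5, so 57.3% is also the share of cells with Itgav. Itgb1 alone was read in 93% of cells. Of the 91 cells with Itgb5, 33 had no read of Itgav. Itgb1 was read without Itga4, Itga6 or Itgav in 19 cells, and in 15 of these Itga5 and Itga9 were at 0 too.

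Over both plates, subunits of the same receptor were found together at shares within 4.22 points of the product of their separate shares. Itgam and Itgb2 were both read in 71 cells (49.7%, 41.2 to 58.1), where the product of the separate shares within plates gives 45.4%. The observed share and the product were 44.2% and 39.2% on plate 1, and 60.4% and 57.7% on plate 2. Itgax and Itgb2 were both read in 50 cells (35%, 27.2 to 43.4), and the product gives 35%. By plate, their observed share was 30.5% against a product of 31.9% on plate 1, and 43.8% against 41% on plate 2. The direction of that gap thus differed between plates. Itgav and Itgb5 were both read in 58 cells (40.6%, 32.4 to 49.1) against a product of 36.4%, with 38.9% against 36.6% on plate 1 and 43.8% against 35.8% on plate 2. Each product lies inside the interval of the observed share. That interval does not measure the spread of the gap between share and product, so it cannot decide whether subunits were read together more often. The cells with both subunits also had more genes detected, a median of 3471 for Itgam with Itgb2 against 2982 in the other cells, and 3426 for Itgav with Itgb5 against 3110. The part of detection in these pairs was not tested.

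For the pairs with Itgb1, which was read in nearly every cell, observed share and product differed by at most 1.18 points. Itga6 and Itgb1 were both read in 58% of cells against a product of 57.3%, Itgav and Itgb1 in 54.5% against 53.4%, and Itga4 and Itgb1 in 14% against 14.3%. The rare pairs were Itgav with Itgb3, in 6 cells against 6.80 by the product, and Itgal with Itgb2, in 5 cells against 4.71.

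Over the 8 known pairs the observed share divided by the product had a median of 1.02 and ran from 0.88 to 1.12. Over the 16 alpha and beta combinations of the members that are not listed as receptors, the median was 0.98, with a highest value of 1.11. In levels, the Spearman correlation over cells, with the number of genes detected partialled out, was 0.06 for Itgam with Itgb2 on plate 1 and 0.04 on plate 2, and 0.10 and 0.19 for Itgav with Itgb5. For Itga6 with Itgb1 the signs differed between plates, at -0.12 on plate 1 and 0.26 on plate 2. The neighbours Itgam and Itgax, which share a partner, had 0.04 and 0.12, and were both read in 37.8% of cells against a product of 35.8%. None of these pairs reached 0.2 on both plates.

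**Figure D3:**
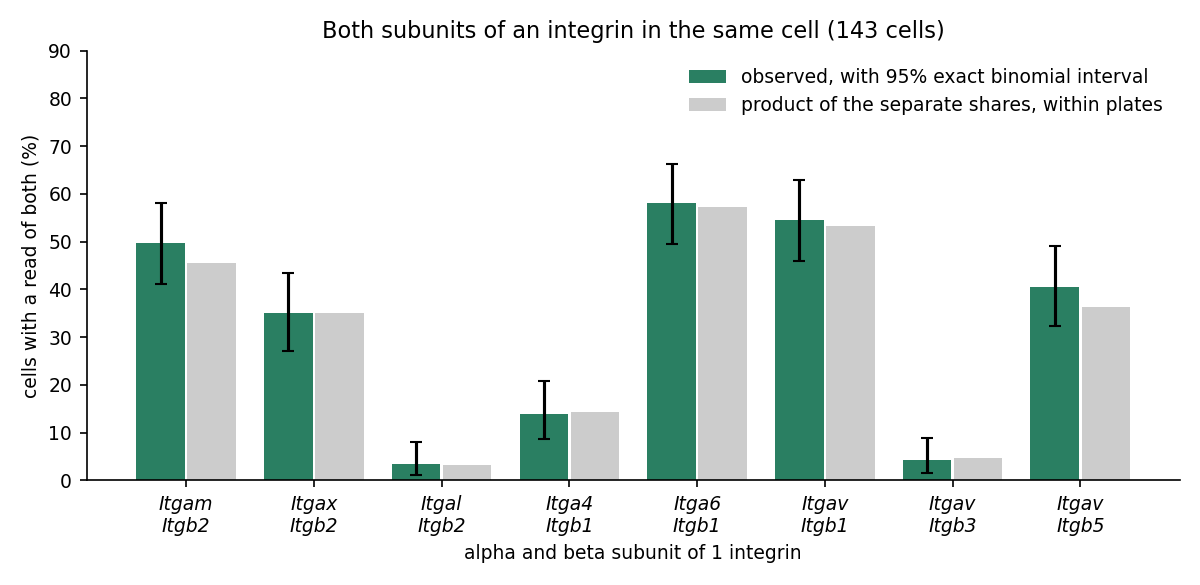
Green bars give the share of 143 cells with a read of both subunits of an integrin, with exact 95% binomial intervals, and grey bars the product of the separate shares computed within plates. Each grey bar lies within the interval of its green bar, but that interval does not measure the spread of the gap. The gap is largest for Itgam with Itgb2, at 4.22 points, and Itgav with Itgb5, at 4.2.

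Among genes that switch integrins on, Rap1b and Tln1 were read in nearly every cell. Of 42 listed genes of activation and adhesion, 3 were read in 90% of cells or more and 13 in 50% or more. Of all 23337 gene rows, 545 and 2197 were. The listed genes, 5 of them at 0, had a median share of 31.1%. Gene rows with a read had a median share of 16.1%, and all gene rows one of 0.70%. Rap1b, a small GTPase that triggers integrin activation, was read in 96.5% of cells with a pooled level of 548 CPM, Tln1 (talin-1), which binds the beta tails, in 92.3% with 349 CPM, Fermt3, the kindlin of blood cells, in 83.2% with 256 CPM, and the adaptor gene Skap2 in 89.5% with 209 CPM. The other kindlin genes Fermt1 and Fermt2, named after their values were seen, had no read in any cell.

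Of the ligand genes of the members, Spp1 had by far the highest level. Of 39 listed ligand genes, 20 had no read in any cell, where 10536 of all 23337 gene rows had none, among them Vtn (vitronectin), Vcam1 and the fibrinogen genes Fga, Fgb and Fgg, and 4 were read in 50% of cells or more, where 9.41% of all gene rows were. Spp1, which encodes osteopontin, a ligand of Itgav receptors, was read in every cell at a pooled level of 44411 CPM. F11r, a junctional adhesion molecule bound by LFA-1, was read in 82.5% of cells, and the disintegrins Adam15 and Adam9 in 64.3% and 65%. Of 19 other partner genes in the table, 8 were read in 90% of cells or more, where 545 of all gene rows were, and 4 had no read. The tetraspanins Cd9, Cd81 and Cd63 and the adaptor gene Tyrobp, highest in pooled level among them, were read in every cell. Lrrc33, named after its values were seen, is a protein of myeloid cells that presents latent TGF-beta to the integrin Itgav-Itgb8. Lrrc33 was read in 79% of cells, and Itgb8 had no read.

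Members differed in how much they varied between cells. Excess is the log2 of the squared coefficient of variation over the running median of 7789 genes ordered by mean CPM. Of the 8 members ranked, 6 were above 0, with a median of 0.44, while 49.7% of all ranked genes were above 0. Itgax had an excess of 1.14, above 98.7% of ranked genes, with 0.79 on plate 1 and 1.55 on plate 2. Itgb2 (0.81) and Itgb5 (0.80) were above 96.2% and 96.1% of ranked genes, though Itgb2 stood at 1.09 on plate 1 and 0.17 on plate 2. Itgav at -0.34 was below 0 on both plates, while Itgb1 at -0.37 stood at -0.47 on plate 1 and 0.06 on plate 2. Itgal and Itgb3 were read in under 10% of cells and were not ranked.

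Cells with many cell cycle transcripts were compared with the other cells. The cycling class held 61 cells, with at least 6 of 24 S-phase or 8 of 31 G2/M genes at a CPM of 10 or more, and 37 cells lay within 2 genes of a limit, so it is a range and not a type. A ratio of at least 1.5 in the same direction on both plates was reached by 2 of the 8 members tested, both lower in cycling cells, where 5.42% of 7789 genes were lower and 12.5% higher. No member was higher by that rule. Cycling cells had a median of 3600 genes detected and the other cells 2912.

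Itgax had a pooled level of 102.3 CPM in cycling cells and 247 CPM in the other cells. On plate 1 the values were 102.4 CPM in cycling cells and 190 CPM in the others, and on plate 2 they were 101.9 CPM in cycling cells and 340 CPM in the others. The share of cells with a read was close in both classes, 49.2% (36.1 to 62.3) in cycling cells and 54.9% (43.5 to 65.9) in the others. Itga4 was at 10.5 CPM in cycling cells and 27.3 CPM in the others, with a read in 7 cycling and 15 other cells, and a single cycling cell on plate 2. By plate it had 13.4 CPM in cycling cells and 28.7 CPM in the others on plate 1, and 1.62 CPM in cycling cells and 24.8 CPM in the others on plate 2. Itgb2 had 287 CPM in cycling cells and 223 CPM in the others, but its direction differed between plates, and so did that of Itgb1. Scaled to spike-in counts, where 1.69% of genes were lower and 26.1% higher, only Itga4 passed the ratio, and with limits of 4 S or 6 G2/M genes neither did.

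The likeness of Itgax to Atp6v0d2 was found on both plates. For 7 members read in at least 50% of cells on both plates, the 3 genes with the highest partial Spearman correlation on plate 1, among 4337 others, were taken and read again on plate 2. Of these 21 genes, 12 had a value above 0 on plate 2 and 1 was above the 99th percentile of all genes there. That gene was Atp6v0d2, which encodes a vacuolar proton pump subunit, with 0.51 to Itgax on each plate, where the 99th percentile was 0.27 on plate 1 and 0.36 on plate 2. Of the cells with a read of Itgax 68% had a read of Atp6v0d2, against 22.1% of the cells without. By plate, 66.7% of cells with and 19.1% of cells without Itgax had one on plate 1, and 70.4% of cells with and 28.6% of cells without it on plate 2. The next genes for Itgax were Rhoc, a small GTPase, with 0.45 on plate 1 and 0.02 on plate 2, and Lag3, an immune receptor, with 0.39 and 0.34.

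For the other members the leading genes of plate 1 mostly did not return. Itgam was nearest to Lcp2, an adaptor gene of immune receptor signalling (0.35 on plate 1 and 0.16 on plate 2), Ftsjd2 (0.33 and -0.02) and Lass6 (0.32 and 0.05). Itgb2 was nearest to Tiprl (0.37 and -0.12), Trp53 (0.33 and -0.08) and Ctsc, the protease cathepsin C (0.33 and 0.26). Itgb5 was nearest to 1110001A16Rik (0.39 and 0.25), Tceb3 (0.39 and -0.11) and Ucp2 (0.39 and 0.08). Itga6 was nearest to Ckb, a creatine kinase (0.36 and 0.23), Abcg3 (0.34 and -0.02) and Trim14 (0.34 and 0.19). Itgav was nearest to Lrrc58 (0.39 and -0.11), P2rx4, an ATP-gated channel (0.37 and 0.21), and 1110001J03Rik (0.35 and -0.09). Itgb1 was nearest to Rfc1 (0.39 and -0.14), Tubb5 (0.38 and -0.11) and Erh (0.36 and 0.04).

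Links to 13 genes of microglial state were sparse, and those near 0.2 in size, in sparse counts, are a description only. Of 91 links between 7 members and these genes, 4 reached 0.2 in size with the same sign on both plates (4.40%), where 2.64% of the links of all genes to the same state genes did. Itgax with Spp1 had 0.37 on plate 1 and 0.49 on plate 2, while 1.01% of 4337 genes had such a positive link to Spp1. Median Spp1 was 53967 CPM in the 75 cells with a read of Itgax and 39312 CPM in the 68 without, with 49813 CPM with and 39093 CPM without on plate 1, and 54890 CPM with and 40052 CPM without on plate 2. Itgax with Cx3cr1, the fractalkine receptor, had -0.20 on plate 1 and -0.21 on plate 2, where 1.91% of genes had such a negative link. That link fell short of the limit with the plain correlation and on the spike-in scale. Itgax with Igf1, at 0.27 on plate 1 and 0.18 on plate 2, fell short as reported but passed in both of those settings.

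**Figure D4:**
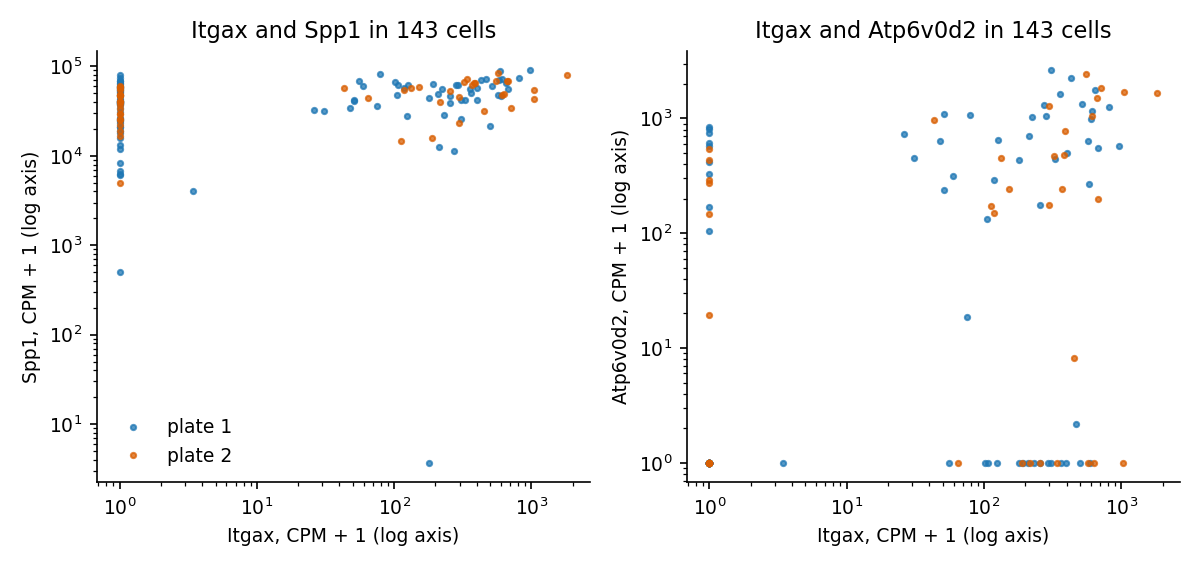
Each point is 1 cell, with Itgax against Spp1 (left) and against Atp6v0d2 (right) as CPM + 1 on log axes and plates by colour. Cells with a read of Itgax have a median Spp1 of 53967 CPM, against 39312 CPM in those without, and 68% of them have a read of Atp6v0d2, against 22.1%.

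Itgb5 had 2 such links, to P2ry12 and to Lpl. With P2ry12, a purinergic receptor, it had 0.22 on plate 1 and 0.31 on plate 2, where 1.75% of genes had such a positive link. P2ry12 was read in 91.4% of the cells with Itgb5 and 86.5% of those without on plate 1, and in 97% of the 33 with and 60% of the 15 without on plate 2. This link fell short of the limit on the spike-in scale. With Lpl, lipoprotein lipase, Itgb5 had -0.26 and -0.24, where 1.66% of genes had such a negative link. Median Lpl was 1458 CPM in cells with Itgb5 and 2503 CPM in cells without, with 1443 CPM with and 2470 CPM without on plate 1, and 1489 CPM with and 2805 CPM without on plate 2. With Mrc1, the mannose receptor and a border-associated macrophage marker read in 55.9% of cells, Itgb5 had 0.20 on plate 1, just under the limit, and 0.43 on plate 2. With the microglial markers Cx3cr1 and Csf1r the pattern was similar, at 0.19 and 0.26 for Cx3cr1 and 0.15 and 0.28 for Csf1r. With the plain correlation the links of Itgb5 to Mrc1, Cx3cr1 and Csf1r all passed the limit. The gate genes Gpnmb and Clec7a had no link past the limit with any of the 7 members, nor did Ptprc, which encodes CD45. Itgal, Itga4 and Itgb3 were read in too few cells for this measure.

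**Figure D5:**
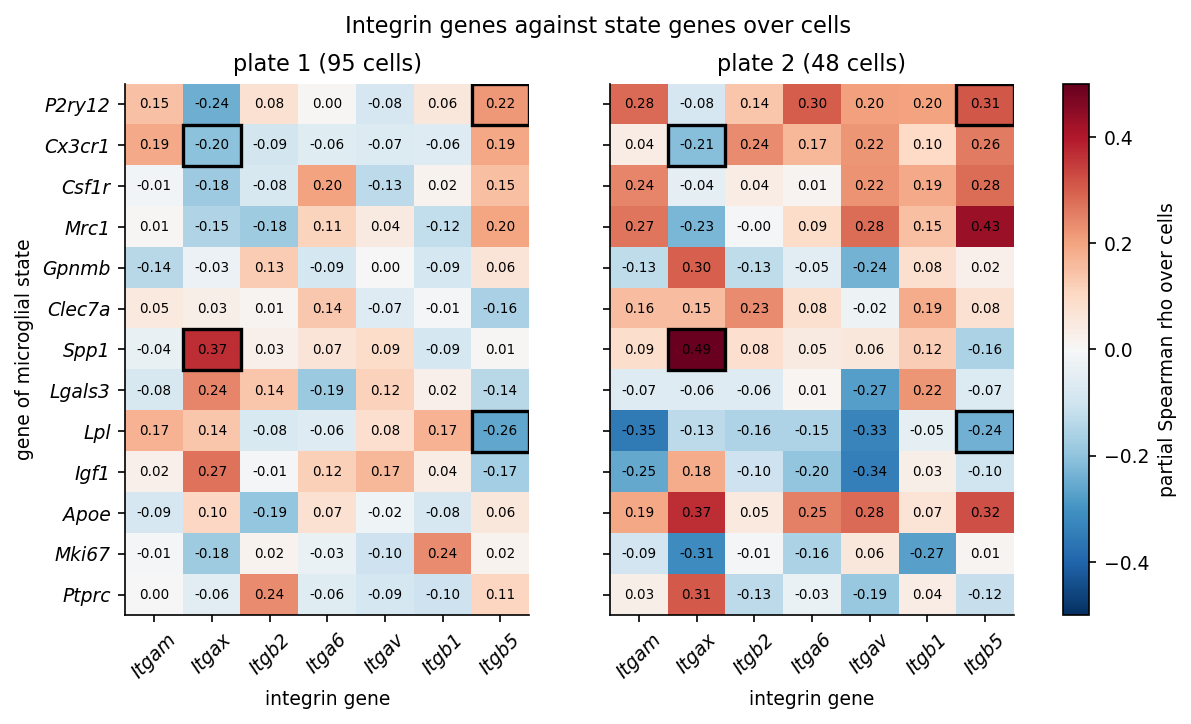
Colours and numbers give the partial Spearman correlation over cells between 7 integrin genes and 13 state genes on plate 1 (left) and plate 2 (right), and black frames mark the 4 links of at least 0.2 in size with the same sign on both plates. Only 51 of the 91 links have the same sign on both plates.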

How the data were processed

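The table the authors deposited holds raw counts, 23337 gene rows and 92 spike-in rows by 143 cells. Per the submitters' processing notes, Trim Galore 0.4.3, STAR 2.5.3a, Picard, HTSeq and the build mm10 were used; the order, settings, annotation and strand setting are not given in the sources used here. Column sums equalled the labelled totals in 143 of 143 cells, and no cells were identical.

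The pool's name ends in adult, unlike the age label, which was followed. CPM were computed here from the deposited counts, spike-ins left out and Rn45s kept. No cell was removed. Exon and coding lengths are unions over GENCODE M21 (mm10) transcripts; Gm49368 on the same strand shares 3450 exon bases with Itgam, and opposite-strand genes share 1124 with Itga4 (Cerkl, read in 3 cells) and 634 with Itgav, so those reads may be uncertain. Intervals are exact Clopper-Pearson 95% intervals over cells and cover counting error only. The cells share a pool and none can be assigned to an animal, so the intervals hold no spread between animals. Reads without molecular identifiers are not independent molecules. Partial Spearman correlations removed the rank of genes detected within each plate, for genes read in at least 25% of cells on each plate. Class ratios used pooled CPM + 1 over genes read in at least 10% of cells. The class ratio, excess and likeness steps were tested on simulated data, while shares, levels per length and pairing were not. The named genes are the members, the subunit genes read in at least 10% of cells, the leading 4 of each list, the best known ligands at 0, the state genes and the 3 genes nearest each member on plate 1; the markers and the other subunit genes were named after their values were seen. The members and lists were chosen with earlier results of these data known. Python 3.11.15, NumPy 2.4.6, pandas 2.3.3 and SciPy 1.17.1 were used.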

Additional observations from a re-analysis of the deposited data

How the results depend on the processing

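Members read in at least 50% of cells numbered 7 as reported and on each plate alone, and 6, without Itgav, with a minimum of 5 counts, a CPM of 10 or thinning to the lowest gene total. The share of cells with a complete integrin ran from 85.4% to 93.7% over these settings. Members lower in cycling cells numbered 2 as reported, 1 scaled to spike-in counts (Itga4) and 0 with limits of 4 S or 6 G2/M genes, where 1 (Itgav) was higher instead of 0. Links past the limit numbered 4 as reported and 7 with the plain Spearman correlation, 3 of them shared, and 3 on the spike-in scale, 2 of them shared; Itgax with Spp1 and Itgb5 with Lpl passed in each of these 3 settings. Of 50 other values for shares of cells, 3 left the interval of the main share: Itgav at 5 counts (42.7%) and at a CPM of 10 (38.5%), and Itgam on plate 2 (79.2%). For the pairs, observed share minus product stayed at 2.69 to 4.99 points for Itgam with Itgb2 and at 1.75 to 7.94 points for Itgav with Itgb5 over the same alternatives. Other pairs changed sign. Itgax with Itgb2 ran from -1.39 to 2.73 points and Itgav with Itgb1 from -0.55 to 1.68. Itga4 with Itgb1 ran from -1.11 to 1.22 points and Itgal with Itgb2 from -0.41 to 0.50. Itga6 with Itgb1 stayed positive, at 0.26 to 0.90 points, and Itgav with Itgb3 negative, at -1.26 to -0.21. By the variance of log2(CPM + 1), the excess of Itgax was 0.43, below that of Itgb2 at 0.70, and that of Itga4 -0.11, against 0.40 as reported for Itga4. The causes were not tested. No paired analysis was possible because all cells belong to 1 group. Genes at few molecules per cell limit detection, so a cell without a read of a subunit is not shown to lack it.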
